A study of Mus musculus with 5 samples.

Results

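T cells of 2 recipient tracheas were described from single-cell RNA counts. A barcode belonged to the set when it held 2 or more UMIs of Cd3d, Cd3e and Cd3g together, or 3 or more UMIs of Nkg7, with under 10 UMIs of the C1q genes and under 2 UMIs of Cd79a. Barcodes with at least 500 mouse genes and under 20% mitochondrial UMIs were considered. The rule found 161 cells among the 2551 barcodes kept from the GFP-negative, endogenous libraries, and 6620 barcodes were kept in the whole series. The day 56 library gave 124 of these cells and the day 40 library gave 37. The cells were thus chosen by their own counts of these genes, whose levels are given as a description.

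The cells came from adult wild-type mice of the 129 X1/S1 strain. Each recipient had its tracheal lining stripped with the detergent polidocanol and then received basal cells derived in culture from mouse embryonic stem cells (iBCs) into the trachea. Tracheas were taken 56 or 40 days after transplantation, 1 recipient per day, digested with pronase, and live Calcein Blue-positive cells were sorted by GFP into an endogenous (GFP-negative) and a donor-derived (GFP-positive) 10x Chromium library. The control was the trachea of 1 mouse of the same strain without injury or transplantation, sorted for live cells only. With 1 library per day, day and recipient cannot be told apart, and differences between the days have no replicate check. The digestion was designed for epithelium, and the labels name no step that selected or removed leukocytes.

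T cells recognise peptide fragments held on MHC molecules through a receptor made of alpha and beta (or gamma and delta) chains, which signals through the CD3 chains. CD8 T cells read class I MHC and kill with perforin and granzymes. CD4 T cells read class II MHC and act mainly through cytokines and surface ligands, and those with the transcription factor Foxp3 restrain other T cells. In airway mucosa many T cells settle for long periods, carry the chemokine receptor Cxcr6 and the receptor Pdcd1 (PD-1), and recruit other leukocytes through the chemokines Ccl5, Ccl3, Ccl4 and Xcl1. Natural killer (NK) cells share much of this cytotoxic programme but lack CD3 and carry Ncr1.

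The proposed identity of T and NK cells held for the T cells alone. Each of the 161 cells passed through its CD3 transcripts, with a median of 23 CD3 UMIs on day 56 and 15 on day 40 and no fewer than 3 and 4 in any cell. No kept barcode of either library had 3 or more Nkg7 UMIs with fewer than 2 CD3 UMIs. Ncr1, the activating receptor NKp46 that marks NK cells, had 0 UMIs in these cells and in all other kept barcodes of the 5 libraries. Klrb1c (NK1.1) also had 0 UMIs in these cells. Other kept barcodes of the endogenous libraries held 24 UMIs of it on day 56 and 26 on day 40. The set is therefore called T cells from here on. Close to the threshold, 6 cells on day 56 and 3 on day 40 held 2 to 5 CD3 UMIs, and each of them also carried Trac or a Trbc transcript and fewer than 2 UMIs of the epithelial gene Epcam. Just outside it, 4 barcodes on day 56 and 5 on day 40 held 1 CD3 UMI or 2 Nkg7 UMIs. None of those carried Trac or Trbc, and 4 and 3 of them held 2 or more Epcam UMIs.

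T cells made up 10.1% of kept barcodes in the day 56 endogenous library (124 of 1228, exact Clopper-Pearson 95% interval 8.47 to 11.9%) and 2.80% in the day 40 endogenous library (37 of 1323, 1.98 to 3.83%). The intervals cover counting error only. B lineage cells, gated by 2 or more Cd79a UMIs, numbered 56 and 41, and macrophages gated by 10 or more C1q UMIs numbered 37 and 11. T cells were thus 57.1% of these 3 leukocyte gates on day 56 (50.3 to 63.8%) and 41.6% on day 40 (31.2 to 52.5%). In the donor-derived libraries the same rule found 1 barcode of 1735 on day 56 (0.0576%) and 4 of 1700 on day 40 (0.235%). The 4 on day 40 held 21825 to 78111 UMIs and at least 20 Epcam UMIs each, and 3 of them also held Trac or Trbc, with 30, 4 and 18 UMIs. The 1 on day 56 held 2 CD3 UMIs and no Trac or Trbc. The control library had 0 of 634, which allows a share of up to 0.473% by the limit of 3 counts and 0.580% by the Clopper-Pearson interval.

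**Figure D1:**
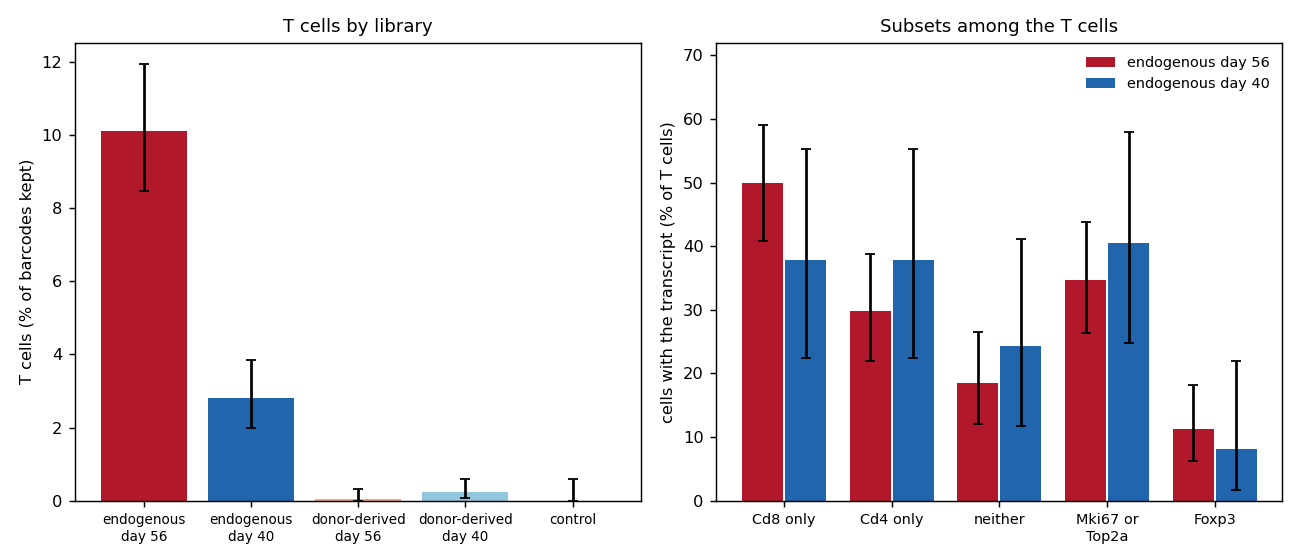
T cells as a percentage of kept barcodes in each library (left) and subsets as a percentage of T cells (right); bars are shares of cells and whiskers are exact 95% Clopper-Pearson intervals, 1 library per bar. The day 56 endogenous library stands at 10.1% and the day 40 endogenous library at 2.80%, and the subset intervals of the 2 days overlap.

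T cells were shallow beside the epithelium around them. Their median depth was 5410.5 UMIs on day 56 and 5883 on day 40, against 13679.5 and 12475 UMIs in barcodes with 2 or more Epcam UMIs. The summed T cell counts were 933248 UMIs on day 56 and 305634 UMIs on day 40, and levels below are CPM of these sums, with no correction for gene length. Scrublet called 1 T cell a doublet in each library, and 3 and 2 T cells held 2 or more Epcam UMIs. No T cell held a UMI of EGFP, the donor mark. Pairs of libraries shared 0 to 2 barcodes, of which 1 was a T cell. Epithelial transcripts were counted in nearly all T cells, and their source was not tested. Scgb1a1, the main club cell secretoglobin, was counted in 96.0% and 91.9% of them at 524 and 510 CPM, against 113528 and 102077 CPM in the Epcam gate. The 10 epithelial genes sampled summed to 840 and 1011 CPM in T cells. Macrophage genes summed to 155 and 164 CPM, against 27228 and 19770 CPM in the C1q gate, and Csf1r, Adgre1 and Fcgr1 had 0 UMIs in T cells. The 8 B lineage genes summed to 121 and 115 CPM in T cells, against 36931 and 7644 CPM in the Cd79a gate. Most of that was immunoglobulin, with 67 and 24 UMIs of Ighm in 33 and 8 T cells, while Ms4a1 and Pax5 had 0 UMIs. Low C1q and Cd79a counts were set by the rule itself.

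Among genes of 100 CPM or more in T cells of both days, the 15 that stood highest over all other kept barcodes were the receptor genes Trbc2, Cd3g, Cd3d, Trbc1, Cd3e and Trac, the kinase Lck, the chemokines Ccl5 and Xcl1, and Nkg7, Ms4a4b, Tnfsf8, Ctla2a, Cxcr6 and Pdcd1. Trbc2, a constant segment of the receptor beta chain, stood at 1616 CPM on day 56 and 1603 CPM on day 40, at least 211 times the level in other barcodes. Cd3g, a CD3 chain, stood at 1387 and 1198 CPM on those days. Trac, the alpha chain constant segment, had 558 CPM on day 56 and 425 CPM on day 40 and was seen in 88.7% and 73.0% of T cells, against 0.233% and 0% of epithelial barcodes, which are deeper. Lck, the kinase that starts receptor signalling, had 375 and 370 CPM. None of the 17 receptor and signalling genes counted often enough to compare was 2-fold apart between the days, against 9.19% of 6432 genes in all, and Cd3d (ratio 1.38, counting interval 1.19 to 1.62) and Cd3e (1.35, 1.13 to 1.62) were somewhat higher on day 56. A count of 0 is near that share, and the CD3 genes were used to choose the cells.

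Ccl5, a chemokine of activated and memory T cells, was the highest of the 15, with 5362 CPM on day 56 and 5582 CPM on day 40. It was uneven among cells: 51 of 124 and 14 of 37 T cells held a UMI of it, and the highest cells held 320 and 407 UMIs. Xcl1, which attracts cross-presenting dendritic cells, was concentrated further, in 24 cells on day 56 and 6 cells on day 40, with up to 389 and 102 UMIs in a cell. Ccl5 and Xcl1 were found together in 5 cells on day 56 and 1 cell on day 40. Cxcr6, whose ligand is made by macrophages and epithelium, was seen in 63.7% and 51.4% of T cells at 387 and 317 CPM. Pdcd1 was seen in 70.2% and 62.2% at 353 and 285 CPM, against 0.233% and 0.0976% of epithelial barcodes.

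**Figure D2:**
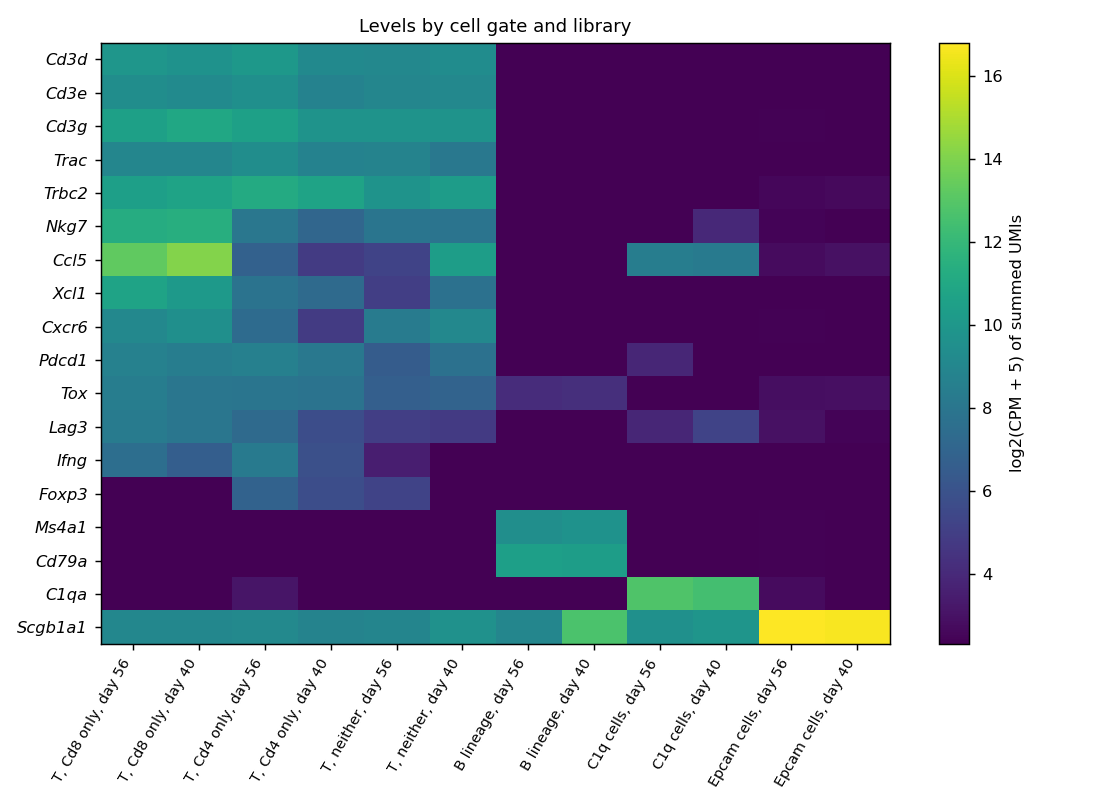
Levels of 18 genes as log2(CPM + 5) of summed UMIs (colour) in T cells by CD8 or CD4 transcripts, B lineage cells, C1q macrophages and Epcam-positive cells of the day 56 and day 40 endogenous libraries. CD3 and receptor genes are near the floor outside T cells, Ccl5, Nkg7 and Xcl1 are highest in the CD8 columns, and Scgb1a1 is present at a low level in each T cell column.

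T cells were divided by their co-receptor transcripts. Cells with Cd8a or Cd8b1 and no Cd4 (CD8 cells) numbered 62 of 124 on day 56 (50%, interval 40.9 to 59.1%) and 14 of 37 on day 40 (37.8%, 22.5 to 55.2%). Cells with Cd4 and neither Cd8 gene (CD4 cells) numbered 37 (29.8%, 22.0 to 38.7%) on day 56 and 14 (37.8%) on day 40. Both were found in 2 and 0 cells, and neither in 23 (18.5%) and 9 (24.3%). The intervals of the 2 days overlapped for each subset. Detection set these shares in part: thinned to 2000 UMIs per cell, CD8 cells were 48.4% and 29.7%, CD4 cells 20.2% and 18.9%, and cells with neither 31.5% and 51.4%. Foxp3 was seen in 14 T cells on day 56 (11.3%), of which 12 were CD4 cells and 0 were CD8 cells. On day 40 it was seen in 3 T cells (8.11%), all of them CD4 cells.

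The CD8 and CD4 cells were compared as summed counts with edgeR's quasi-likelihood test, with 2 libraries per arm. The sums were 501157 and 94331 UMIs in CD8 cells and 263958 and 167632 UMIs in CD4 cells on days 56 and 40. Median depth was 5373.5 and 5991.5 UMIs in CD8 cells and 6370 and 10202.5 UMIs in CD4 cells on those days. Cd4, Cd8a and Cd8b1 made the arms and were left out. Of 3326 genes tested, 59 (1.77%) passed a Benjamini-Hochberg adjusted p of 0.05, 23 (0.692%) higher in CD8 cells and 36 (1.08%) lower. Both arms of a day share a recipient. With the library as a replicate block, 33 genes passed, 15 higher and 18 lower, of which 31 were among the 59. The p-values measure the spread between the sums of 2 recipients, which were also taken on different days.

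CD8 cells were set apart by chemokines, killer genes and NK-type receptors. Of 5 chemokines tested 3 passed as higher in CD8 cells, of 8 cytotoxic genes 4, and of 4 genes of the NK list 3. Of all genes tested 0.692% passed as higher. The lists were chosen with earlier results of these data known, so their counts, here and below, are a description and no test of enrichment. No member of these lists passed as lower, though Ccl1, Srgn and Tnfsf10 had negative log2 fold changes (-2.55, -0.79 and -0.47). Ccl4 and Ccl3 are chemokines that draw in other leukocytes. Ccl4 had 1622 CPM in CD8 cells on day 56 and 1081 CPM on day 40, against 7.58 and 0 CPM in CD4 cells (log2 fold change 8.13 ± 0.53 SE, edgeR adjusted p = 2.8e-05). Ccl3 had 784 and 1018 CPM in CD8 cells, against 7.58 and 0 CPM in CD4 cells (7.52 ± 0.55, adjusted p = 3e-05 by edgeR). The 2 genes were found in the same cells: 24 of the 27 T cells with Ccl3 on day 56 also held Ccl4, as did 6 of 8 on day 40. Single CD8 cells held much of both: 303 of 813 Ccl4 UMIs on day 56 and 47 of 102 on day 40 came from 1 cell each. For Ccl3 these were 125 of 393 and 70 of 96. Xcl1 had 1662 and 1081 CPM in CD8 cells, against 220 and 155 CPM in CD4 cells (2.92 ± 0.30, edgeR adjusted p = 0.00048). Its UMIs were concentrated: all 102 UMIs in CD8 cells of day 40 and 389 of 833 in those of day 56 came from 1 cell each. In CD4 cells 55 of 58 UMIs on day 56 came from 1 cell, and on day 40 more CD4 cells (4) than CD8 cells (1) held it.

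Among the killer genes, Prf1 (perforin, which forms pores in target cells) had 146 CPM in CD8 cells on day 56 and 106 CPM on day 40, against 0 UMIs in CD4 cells of either day. Set against 3 counts over the CD4 cells, it was at least 20.1-fold higher in CD8 cells (edgeR adjusted p = 0.0015). Nkg7, a protein of cytotoxic granules, had 2496 and 2703 CPM in CD8 cells, against 265 and 131 CPM in CD4 cells (3.73 ± 0.32, edgeR adjusted p = 0.00049). Gzmk, a granzyme, had 122 and 127 CPM in CD8 cells, against 18.9 and 0 CPM in CD4 cells (3.44 ± 0.65, edgeR adjusted p = 0.022). Ctsw, a cathepsin of cytotoxic cells, was the other cytotoxic gene called (2.14 ± 0.37). The main granzyme of acute killing, Gzmb, was scarce, with 10 UMIs in T cells of day 56 and 8 UMIs in those of day 40.

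The NK-type receptors Klrd1 (CD94) and Klrc1 (NKG2A) pair on the cell surface and bind the class I molecule Qa-1. Klrd1 had 463 and 742 CPM in CD8 cells, against 0 and 5.97 CPM in CD4 cells (7.76 ± 0.65, edgeR adjusted p = 0.00013). Klrc1 had 116 and 63.6 CPM in CD8 cells, against 3.79 and 0 CPM in CD4 cells (5.21 ± 0.79, edgeR adjusted p = 0.0055). Eomes, a T-box transcription factor of killer and memory cells, had 120 and 84.8 CPM in CD8 cells and 0 UMIs in CD4 cells, at least 16.4-fold higher. Runx3, which sets the CD8 lineage, was also higher (335 and 286 CPM, against 45.5 and 71.6 CPM in CD4 cells). Havcr2 (TIM-3, an inhibitory receptor) had 91.8 and 117 CPM in CD8 cells, against 22.7 and 5.97 CPM in CD4 cells. Ctla2a, a cysteine protease inhibitor whose near-identical relative Ctla2b can share its reads, and the enzymes Car2 and Aldh1a1 completed the 15 named genes, and 54 of the 63 Aldh1a1 UMIs in CD8 cells of day 56 came from 1 cell.

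Promoters of 3 of these genes and of Tnfrsf4, which was lower in CD8 cells, are shown as picked examples. They do not stand for all named genes, whose counts follow them. T-box and Runt letters were marked because such factors were among the genes that differed, and their part in these levels was not tested. Each window holds 300 bases of GRCm38.p6 from RefSeq, 250 before and 50 after the start, and capitals mark a match to TCACACC (T-box), TGTGGT (Runt) or TGANTCA (AP-1) on either strand. No 2 of the printed matches overlap.
Ccl3, chr11:83649329-83649628, minus strand: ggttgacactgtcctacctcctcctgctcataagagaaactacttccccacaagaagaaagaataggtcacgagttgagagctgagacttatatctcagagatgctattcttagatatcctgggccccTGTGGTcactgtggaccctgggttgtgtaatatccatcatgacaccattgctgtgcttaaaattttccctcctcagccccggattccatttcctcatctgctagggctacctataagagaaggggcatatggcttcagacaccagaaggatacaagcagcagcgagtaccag
Nkg7, chr7:43436888-43437187, plus strand: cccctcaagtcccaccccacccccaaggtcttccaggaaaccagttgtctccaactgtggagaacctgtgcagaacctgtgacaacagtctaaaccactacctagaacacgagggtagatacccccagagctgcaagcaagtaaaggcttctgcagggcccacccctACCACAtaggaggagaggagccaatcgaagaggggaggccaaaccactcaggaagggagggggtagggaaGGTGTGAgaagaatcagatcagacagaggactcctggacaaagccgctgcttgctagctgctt
Xcl1, chr1:164935473-164935772, minus strand: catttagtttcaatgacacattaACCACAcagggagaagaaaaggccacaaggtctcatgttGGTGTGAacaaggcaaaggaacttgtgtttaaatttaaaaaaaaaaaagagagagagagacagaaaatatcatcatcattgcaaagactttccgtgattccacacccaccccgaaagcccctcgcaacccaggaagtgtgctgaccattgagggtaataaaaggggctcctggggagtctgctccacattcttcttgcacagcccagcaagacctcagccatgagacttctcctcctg
Tnfrsf4, chr4:156013445-156013744, plus strand: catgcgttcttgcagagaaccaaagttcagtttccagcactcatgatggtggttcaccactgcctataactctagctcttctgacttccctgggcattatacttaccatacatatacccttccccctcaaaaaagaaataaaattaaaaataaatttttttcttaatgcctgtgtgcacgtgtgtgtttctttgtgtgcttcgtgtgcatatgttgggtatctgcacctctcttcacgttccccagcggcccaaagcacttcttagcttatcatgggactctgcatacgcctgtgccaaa
A promoter was matched for 11 of the 15 named genes that were higher in CD8 cells and for 12 of the 16 that were lower. The T-box letters stood in 4 of the 11 and 0 of the 12, against 3.98% of 32851 promoters of this length. The Runt letters stood in 7 of the 11 and 1 of the 12, against 16.8% of all promoters. The AP-1 letters stood in 3 and 2, against 7.81% of all. These are matches of letters and not measured binding.

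**Figure D3:**
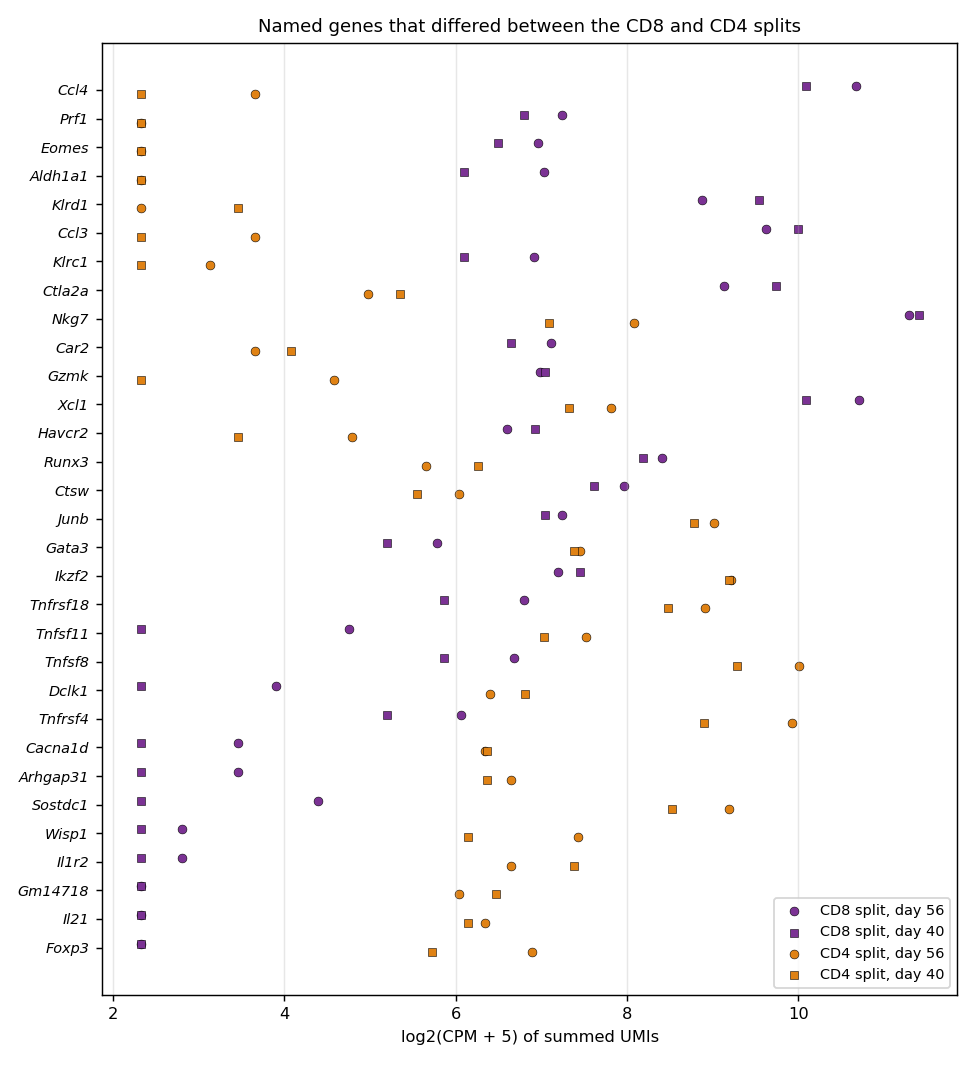
Summed levels, log2(CPM + 5), of the 31 named genes that passed edgeR's test between CD8 cells (purple) and CD4 cells (orange) on day 56 (circles) and day 40 (squares), 1 summed library per point. For each gene the 2 CD8 points lie on the same side of the 2 CD4 points.

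CD4 cells were set apart by members of the TNF and TNF receptor families, regulatory T cell genes and Il21. Of 7 regulatory T cell genes tested 4 passed as lower in CD8 cells, and so did 3 of 7 cytokines and surface ligands. Of all genes tested 1.08% passed as lower, and these lists too were chosen with earlier results known. None of either list passed as higher, and Fasl alone among them had a positive log2 fold change (1.04 ± 0.65). Foxp3 had 0 UMIs in CD8 cells, against 114 and 47.7 CPM in CD4 cells, and was at least 17.5-fold higher in CD4 cells (edgeR adjusted p = 0.021). Tnfrsf4 (OX40), a co-stimulatory receptor, had 61.9 and 31.8 CPM in CD8 cells, against 970 and 471 CPM in CD4 cells (log2 fold change -3.70 ± 0.47 SE, edgeR adjusted p = 0.004). It was present in all 14 Foxp3 cells of day 56 and all 3 of day 40, and more widely in 35 of the 37 CD4 cells of day 56 and 12 of the 14 of day 40. Tnfrsf18 (GITR) and Ikzf2 (Helios), both high in regulatory T cells, differed in the same direction (-2.16 ± 0.34 and -1.88 ± 0.29). Of the other regulatory genes, Ctla4 had 33.9 and 42.4 CPM in CD8 cells, against 216 and 47.7 CPM in CD4 cells (edgeR adjusted p = 0.44), and Il10 had 0 UMIs in T cells of either day.

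Tnfsf8 (CD30 ligand) had 97.8 and 53.0 CPM in CD8 cells, against 1027 and 620 CPM in CD4 cells (-3.24 ± 0.39, edgeR adjusted p = 0.0015). Tnfsf11 (RANK ligand), a signal to epithelial cells over lymphoid tissue, had 22.0 and 0 CPM in CD8 cells, against 178 and 125 CPM in CD4 cells (-3.06 ± 0.55, edgeR adjusted p = 0.018). Il21, a cytokine that helps B cells, had 0 UMIs in CD8 cells, against 75.8 and 65.6 CPM in CD4 cells, at least 14.3-fold higher in CD4 cells (edgeR adjusted p = 0.032). Sostdc1, a secreted antagonist of BMP and Wnt signals, had 16 and 0 CPM in CD8 cells, against 580 and 364 CPM in CD4 cells (-5.11 ± 0.52, edgeR adjusted p = 0.00085). Of 15 T cells with Il21 on day 56, 11 also held Sostdc1, as did 2 of 4 on day 40. The follicular helper genes Cxcr5 and Bcl6 were counted at only 8 and 13 UMIs on day 56 and 5 and 7 UMIs on day 40. The remaining named genes lower in CD8 cells were Il1r2 (a decoy receptor for interleukin 1), Wisp1 (a secreted CCN protein), Gata3 (the regulator of type 2 cells), Junb (an AP-1 subunit), Arhgap31, Cacna1d (a calcium channel), Dclk1 (a kinase) and Gm14718.

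Under the block, 8 of the 31 named genes no longer passed, namely Il21, Gm14718, Arhgap31, Cacna1d, Dclk1, Gata3, Havcr2 and Gzmk, each with its direction kept. Ccl5 had a wide gap of levels but did not pass the test: 9917 and 17439 CPM in CD8 cells, against 110 and 23.9 CPM in CD4 cells (7.60 ± 0.89, edgeR adjusted p = 0.17). Cxcr6 (541 and 742 CPM in CD8 cells, 159 and 23.9 CPM in CD4 cells) did not pass either, with an edgeR adjusted p of 0.36. For Pdcd1 the levels were 411 and 339 CPM in CD8 cells and 394 and 274 CPM in CD4 cells (0.23 ± 0.30, edgeR adjusted p = 0.94). Of 17 receptor genes, 11 proliferation genes and 10 class I MHC genes tested 0 passed, which is near the 1.77% of all genes tested.

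**Figure D4:**
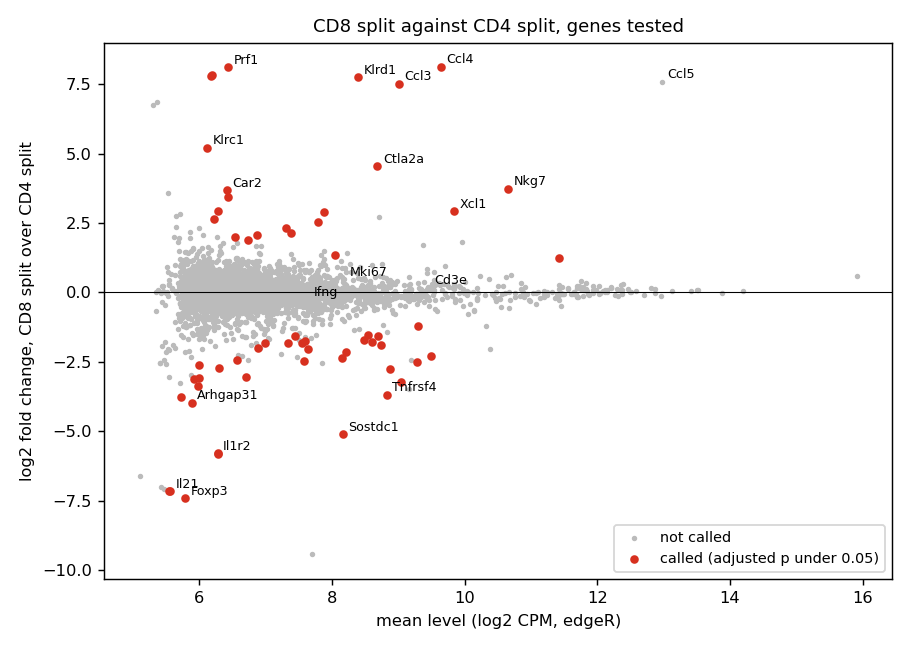
Log2 fold change of CD8 over CD4 cells against mean level (log2 CPM) for the 3326 genes tested with edgeR, 2 summed libraries per arm; red points passed an adjusted p of 0.05 and grey points did not. The 59 red points include Ccl4, Ccl3, Klrd1 and Prf1 above 0 and Foxp3, Il21, Sostdc1 and Tnfrsf4 below, and Ccl5 is grey.

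Interferon gamma transcripts came from both kinds of cell. Ifng was seen in 45 of 124 T cells on day 56, of which 21 were CD8 cells and 22 CD4 cells, and in 8 of 37 on day 40, with 4 of each. Its summed level was 186 CPM on day 56 and 58.9 CPM on day 40, and it had 0 UMIs in the B lineage and C1q gates of either day. In CD8 cells of day 56, 1 cell held 45 of its 90 UMIs. Cytokines of type 2 and type 17 responses were nearly absent. Il5 and Il13 had 0 UMIs on both days and Il4 had 1 UMI on day 56. Il17a and Il17f had 1 UMI each on day 40 and Il22 had 1 UMI on day 56. Ltb (lymphotoxin beta), which organises lymphoid tissue, was widespread, seen in 91.1% of T cells at 635 CPM on day 56 and in 89.2% at 707 CPM on day 40.

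Transcripts of cycling cells were found in both subsets. Mki67 or Top2a was seen in 43 of 124 T cells on day 56 (34.7%, interval 26.4 to 43.7%) and 15 of 37 on day 40 (40.5%, 24.8 to 57.9%). After thinning to 2000 UMIs the shares were 24.2% and 24.3%. By subset, 25 of 62 CD8 cells (40.3%) and 11 of 37 CD4 cells (29.7%) carried them on day 56, and 6 and 5 of 14 on day 40. With 3 or more UMIs required, 14 CD8 cells and 3 CD4 cells counted on day 56, and 2 and 3 on day 40. The 11 proliferation genes summed to 2642 and 1156 CPM in CD8 cells and to 833 and 2350 CPM in CD4 cells on days 56 and 40, so the order of the subsets was opposite on the 2 days. Single cells weighed on these sums. For Top2a, 1 CD4 cell held 27 of 39 UMIs on day 56 and 1 held 30 of 63 on day 40. In CD8 cells 1 cell held 54 of 229 and 12 of 17 on those days. In the Epcam gate the unthinned shares were 7.09% and 6.54% at a greater depth. Among B lineage cells they were 21.4% and 31.7%, with a median depth of 6295 and 6306 UMIs, and those intervals (11.6 to 34.4% and 18.1 to 48.1%) overlap those of T cells.

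Few cells looked like gamma-delta T cells. Trdc, the delta chain constant segment, was seen in 4 T cells on day 56 and 2 on day 40, all of them among cells with neither Cd4 nor Cd8. Of these cells, 2 on day 56 and 0 on day 40 also held Trac. Variable segments of the receptor were captured in a minority of cells. A Trbv segment was counted in 33 of 124 T cells on day 56 and 6 of 37 on day 40, and no cell held more than 1 of them. On day 56, 14 of the 33 cells held Trbv13-2 (42.4%, interval 25.5 to 60.8%), of which 10 were CD8 cells. Trbv2 was next, in 11 of the 33 cells. On day 40 the 6 cells were spread over 5 segments, and Trbv13-2 and Trbv2 each stood in 1 of them. The 5 segments in most cells over both days also included Trbv19 (1 cell on day 56 and 2 on day 40), Trbv4 (2 and 0) and Trbv3 (1 and 1). Of gamma chain segments, Tcrg-V7 was the most frequent on day 56, in 10 cells, and all 10 were CD8 cells. On day 40 it was seen in 1 cell, which had neither co-receptor.

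On day 56 a further pattern appeared at the beta chain locus on chromosome 6. Prss2 (chr6:41521787-41525079, plus strand, GRCm38), a gene for the digestive enzyme trypsinogen, lies 24.9 kb before Trbc2, and trypsinogen genes are known to sit among the mouse beta chain segments. It had 172 UMIs in 32 T cells of day 56, with up to 24 UMIs in a cell, and 0 UMIs in T cells of day 40. Set against 3 counts, it was at least 18.8-fold higher on day 56. Of the 32 cells 31 were CD8 cells, which is 31 of the 62 CD8 cells of that day. All other kept barcodes of the day 56 library together held 9 UMIs of it. Klrc2 (NKG2C), an NK-type receptor, was seen in 15 of these 32 cells and Coch, a secreted matrix protein of the inner ear, in 11. Neither gene was limited to them: of the 31 CD8 cells of day 56 without Prss2, 10 held Klrc2 and 4 held Coch. Klrc2 had 22 UMIs in the CD8 cells with Prss2 and 22 in those without it.

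Gm2663 (chr6:40995830-40999479) and 1810009J06Rik (chr6:40964754-40968435) lie before Trbv2 and Trbv13-2 at the other end of the locus, 550.9 and 581.98 kb before the start of Trbc2. Both were chosen after their values were seen, since gene models were outside the rule for naming. Gm2663 had 604 UMIs in 14 T cells of day 56 and 1 UMI on day 40. 1810009J06Rik had 274 UMIs in 13 of those cells on day 56 and 0 UMIs on day 40. For each of them 11 of the cells were CD4 cells, and no cell held either together with Prss2. Near-identical gene copies at this locus can share reads, so the count of each gene is uncertain.

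The CD8 cells of day 56 with and without Prss2 differed in their beta chain constant segments. Trbc1 was seen in 1 of 31 CD8 cells with Prss2 and in 19 of 31 CD8 cells without it, while Trbc2 was seen in 31 of 31 in both. Trbv13-2 was counted in 8 of the 10 cells with Prss2 that held any Trbv segment, and in 2 of the 7 without Prss2. Pdcd1 was seen in 28 of 31 cells with Prss2 and 24 of 31 without, Ccl5 in 22 and 20, Ifng in 11 and 10, and Mki67 in 11 and 7. Tcrg-V7 was seen in 7 and 3. Aldh1a1 was seen in 1 and 6. These groups were formed from measured transcripts of 1 recipient, so no test was made. Among CD4 cells of day 56, Foxp3 was seen in 0 of the 11 with Gm2663 or 1810009J06Rik and in 12 of the 26 without them, and Ifng in 8 and 14.

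Most genes compared differed less than 2-fold between T cells of the 2 days. Of 6432 genes with at least 20 UMIs together, 591 (9.19%) were 2-fold or more apart, 401 (6.23%) higher on day 56 and 190 (2.95%) lower, with a median log2 ratio of 0.01. The split into higher and lower differed between the subsets. In CD8 cells alone 681 of 4116 genes (16.5%) were apart, 549 higher and 132 lower. In CD4 cells alone 494 of 3178 (15.5%) were apart, 221 higher and 273 lower. The sums on days 56 and 40 were 501157 and 94331 UMIs in CD8 cells and 263958 and 167632 UMIs in CD4 cells. The part of this uneven depth was not tested. With 1 library per day there is no test, and the intervals below cover counting error only.

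**Figure D5:**
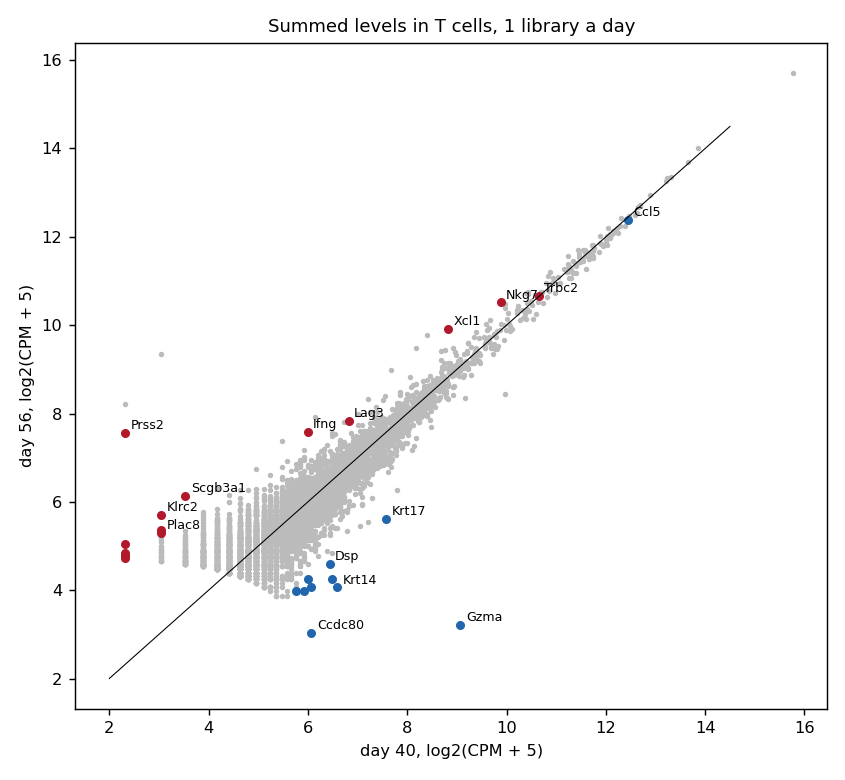
Summed levels in T cells, log2(CPM + 5), on day 56 (vertical) against day 40 (horizontal) for the 6432 genes with at least 20 UMIs, 1 library per axis; the line marks equal levels, and red and blue points are named genes higher or lower on day 56. Most points lie along the line, with Prss2, Klrc2 and Ifng above it and Gzma far below it.

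Over all T cells, several genes of activation and inhibition were higher on day 56. Of 8 genes of inhibitory receptors and Tox counted often enough, 3 were 2-fold higher and none lower, against 6.23% of all genes higher. Lag3, an inhibitory receptor of class II MHC, had 224 CPM on day 56 and 108 CPM on day 40 (ratio 2.07, counting interval 1.43 to 3.09). Ctla4 had 88.9 and 39.3 CPM (2.27, 1.23 to 4.56) and Cd160 had 56.8 and 19.6 CPM (2.89, 1.24 to 8.24). Pdcd1 and Tox were closer, with ratios of 1.24 and 1.27. Ifng was 3.17 times as high on day 56 (1.94 to 5.47). Ccl4 had 873 CPM on day 56 and 334 CPM on day 40 (2.62, 2.13 to 3.25), and Xcl1 had 959 and 448 CPM (2.14, 1.79 to 2.58). The counting intervals leave out the spread between cells. In CD8 cells of day 56, 1 cell each held 303 of 813 Ccl4 UMIs, 389 of 833 Xcl1 UMIs and 45 of 90 Ifng UMIs. Ccl5 had a ratio of 0.961 (0.909 to 1.02). CD8 cells supplied 501157 of 933248 UMIs on day 56 and 94331 of 305634 on day 40, so these ratios over all T cells also carry the share of CD8 cells. Within CD8 cells no gene of Ccl4 (1622 and 1081 CPM), Xcl1 (1662 and 1081 CPM), Lag3 (317 and 254 CPM), Cd160 (89.8 and 53.0 CPM) and Ctla4 (33.9 and 42.4 CPM) was 2-fold apart. There Ccl5 had 9917 CPM on day 56 and 17439 CPM on day 40, and Ifng had 180 and 95.4 CPM. In CD4 cells Ctla4 had 216 and 47.7 CPM, Lag3 155 and 47.7 CPM, and Ifng 299 and 53.7 CPM. Summed over the NK list, CD8 cells had 1012 CPM on day 56 and 1028 CPM on day 40. Over all T cells, 4 of 8 genes of that list were 2-fold higher on day 56 and none lower, against 6.23% of all genes higher. The list is not particular to NK-type cells: it summed to 5347 and 4556 CPM in the C1q gate, against 585 and 402 CPM in all T cells. The source of its UMIs in T cells was not tested. Among 6 genes of tissue residency, 7 cytokine receptors and 11 genes of class I MHC 0 were 2-fold apart, which is near the 9.19% of all genes. Of 11 proliferation genes 1 was lower (Cdk1, the mitotic kinase, 55.7 and 131 CPM), and of 13 interferon response genes 2 were higher and 1 lower.

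Of 7 genes of naive and circulating T cells 3 were at least 2-fold lower on day 56 and none higher, against 2.95% of all genes lower. Klf2, the regulator of T cell exit from tissue, had 41.8 CPM on day 56 and 144 CPM on day 40 (0.290, 0.184 to 0.457). S1pr1, the receptor it controls, had 13.9 and 39.3 CPM (0.355, 0.149 to 0.851). Lef1, a factor of naive T cells, had 19.3 and 52.4 CPM (0.368, 0.177 to 0.772). Klf2 was seen in 8 and 9 cells, S1pr1 in 12 and 6 and Lef1 in 7 and 4, so few cells carried these values. Il7r, the interleukin 7 receptor, was close, with 378 and 360 CPM. Class II MHC genes, which mouse T cells make little of, were higher on day 56 in 3 of 4 genes, summing to 1385 and 569 CPM. Most of these UMIs lay in few cells, and up to 455 of the 666 Cd74 UMIs of day 56 were in 1 cell.

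Gzma, granzyme A, had the lowest ratio of day 56 to day 40. It had 4 UMIs in 2 T cells of day 56 and 163 UMIs in 7 T cells of day 40, with up to 68 in a cell (ratio 0.00804, 0.00216 to 0.0210). Of the 7 cells 6 were CD8 cells, and 6 of the 7 also held Ccdc80, a secreted matrix protein, which had 3 UMIs on day 56 and 19 UMIs on day 40 (0.0517, 0.00980 to 0.176). The 2 genes were not found together in any T cell of day 56. After Prss2, the next T cell gene in order of ratio was Klrc2, with 44 UMIs in 25 cells, all CD8 cells, against 1 UMI on day 40 (14.4, 2.45 to 581.9). Coch had 34 UMIs in 15 CD8 cells of day 56 and 1 UMI on day 40 (11.1, 1.87 to 453).

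Many of the other named genes rested on few cells. On day 56, 23 of 26 UMIs of H2-DMb1, all 20 UMIs of Siglech, 27 of 32 UMIs of Plac8 and 11 of 21 UMIs of Mpeg1 came from 1 cell each. Scgb3a1, a secretoglobin, had 61 UMIs in 46 T cells of day 56 and 2 UMIs on day 40, and in the Epcam gate it had 15526 CPM on day 56 and 7078 CPM on day 40. Its part in T cells from free RNA was not tested. Gxylt1 and Unkl were spread over more cells, with 22 and 21 UMIs on day 56 in 19 and 16 cells, and 0 UMIs on day 40. Of the epithelial genes lower on day 56, Krt14 had 11 and 28 UMIs, Krt17 had 41 and 57, Aqp5 had 10 and 17 and Gpx2 had 11 and 19. Without the 3 and 2 T cells that held Epcam these counts were 0 and 0, 2 and 2, 1 and 0, and 1 and 3. Dsp and Mt1 kept 16 and 12 UMIs on day 40 without those cells, against 1 and 1 on day 56. Plcb4 had 10 and 15 UMIs and Ift57 had 13 and 18 UMIs.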

How the data were processed

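Live cells from 5 tracheal libraries were profiled by 10x Chromium single-cell RNA sequencing. The authors deposited counts of UMIs per gene and barcode against a joint GRCh38 and GRCm38 reference with an EGFP entry, as the gene names in the deposited files show. Tools listed in the submitters' processing notes were Seurat, STARsolo and Cell Ranger, and their versions and roles are not given in the sources used here. Mouse genes alone were used. Mouse UMIs per library were 17730070 and 17753819 (endogenous, days 56 and 40), 21380467 and 25566691 (donor-derived, days 56 and 40) and 7644826 (control).

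Barcodes with 500 or more genes and under 20% mitochondrial UMIs were kept. The members and the gene lists were chosen with earlier results of these data known. Counts per list beside the share over all genes are thus a description. Counts were summed per library and subset and given as CPM. Day 56 against day 40 has 1 library each and no test: genes with 20 or more UMIs together were compared, 2-fold counted as apart, and a sum of 0 was set to 3 counts, giving a bound (per library between days, over both libraries of an arm between CD8 and CD4 cells). Ratios carry exact conditional Poisson intervals and shares exact Clopper-Pearson intervals at 95%. CD8 and CD4 cells were compared with edgeR 4.0.16 in R 4.3.3 (TMM scaling, filterByExpr, quasi-likelihood test, Benjamini-Hochberg adjustment), and DESeq2 1.42.0 was an alternative. The scripts were tested on simulated counts. The 2 arms of a library share a recipient and so pair by source, while the library differences of the 2 arms had a correlation of -0.23 across 3326 genes. Doublets were called with Scrublet in scanpy 1.11.5 and kept. Shares were repeated after thinning each cell to 2000 UMIs, which left out 0 T cells.

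Named genes were the 15 highest over other barcodes among those of 100 CPM or more, up to 10 called genes per direction of the CD8 and CD4 comparison by fold change, the 10 largest ratios per direction between days (5 CPM added, gene models left out), the 5 Trbv segments in most cells and genes of the lists. Alternatives were other CD3 thresholds, 2 UMIs to set a subset, leaving out doublets, other UMI minimums, TMM scaling, means over cells, no filter, DESeq2, the library block and each library left out. Leaving out cells with Epcam and using CD8 or CD4 cells alone for the days were chosen after seeing the data.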

Additional observations from a re-analysis of the deposited data

Results flagged for a closer look

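For 13 genes of the lists the order of CD8 and CD4 cells was opposite on the 2 days, with at least 2-fold in each direction. The difference was not tested, as each day is 1 library. Such opposite ratios were not counted over all genes, so whether 13 is many cannot be told. For Trbc1, a beta chain constant segment, the level in CD8 cells over that in CD4 cells was 0.432 on day 56 and 3.07 on day 40. Genes of DNA replication and mitosis were higher in CD8 cells on day 56 and in CD4 cells on day 40. The CD8 over CD4 ratios on days 56 and 40 were 3.09 and 0.480 for Top2a, 2.82 and 0.355 for Birc5, 3.57 and 0.381 for Pclaf, and 2.44 and 0.444 for Tyms. They were 2.84 and 0.381 for Rrm2, 2.22 and 0.142 for Ube2c, and 5.06 and 0.209 for Cenpf. The day 40 arms hold 14 cells each, and on that day 1 CD4 cell held 44 of 56 UMIs of Pclaf, 22 of 28 of Rrm2, 20 of 30 of Birc5, 15 of 25 of Ube2c and 12 of 17 of Cenpf. A few genes of antigen-presenting and B lineage cells also had opposite ratios, with their day 40 values from few cells. The ratios on days 56 and 40 were 52.7 and 0.0423 for Apoe, 8.43 and 0.178 for Igkc, 14.3 and 0.110 for Cd74, 4.89 and 0.215 for H2-Ab1, and 7.37 and 0.148 for H2-Eb1. On day 40, all 33 UMIs of H2-Ab1, all 24 of H2-Eb1, all 42 of Apoe and 70 of 81 of Cd74 in CD4 cells lay in 1 cell each. On day 56, 52 of 100 UMIs of Apoe and 105 of 190 of Cd74 in CD8 cells lay in 1 cell each.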

How the results depend on the processing

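Of 126 recomputed shares and counts 93 were labelled as within a spread, which is not stated here for counts of genes. Some of them could not move. All members were T cells, so keeping T cells alone repeated the 591 genes apart between days. Needing 2 UMIs for a subset could not alter the Trdc, Foxp3 and Mki67 or Top2a shares. The label also covered CD8 cells alone, with 681 of 4116 genes apart (16.5%), against 591 of 6432 (9.19%). The 93 is thus no measure of stability. The sign between CD8 and CD4 cells changed for 0 of the 31 named genes. The share of T cells ran from 9.85 to 10.7% on day 56 and from 2.65 to 3.17% on day 40. Thinning to 2000 UMIs gave CD4 cells 20.2%, cells with neither co-receptor 31.5%, Foxp3 cells 5.65% and Mki67 or Top2a cells 24.2% on day 56. On day 40 it gave 18.9%, 51.4% and 24.3% for CD4 cells, cells with neither and Mki67 or Top2a cells. With 2 UMIs needed for a subset, cells with neither were 28.2% on day 56.

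Between CD8 and CD4 cells 59 genes passed (23 higher, 36 lower). The replicate block, with the library as the block, gave 33 (15 higher, 18 lower), of which 31 were shared. Without the filter on low counts 167 passed (71 higher, 96 lower). With 2 UMIs to set a subset 30 passed, 14 of them lower, and with DESeq2 34 passed, 18 of them lower. With 1 library left out, the lone sum being assumed to vary like the others, 75 to 277 passed, 24 to 126 higher and 49 to 151 lower. The counts were 75 without CD8 cells of day 56, 107 without CD8 cells of day 40, 107 without CD4 cells of day 56 and 277 without CD4 cells of day 40. The cause was not tested. Of the 31 named genes 18 passed under each alternative that gave them a value, which were 9 to 11 per gene (9 for Aldh1a1 and Foxp3).

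Between the days a minimum of 10 UMIs put 1186 genes 2-fold apart (731 higher, 455 lower), and 50 UMIs put 119 apart (88 higher, 31 lower). CD4 cells alone gave 221 higher and 273 lower, the opposite order. Depth limits CD8 cells of day 40, where 3 counts are 31.8 CPM.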
